A study of Homo sapiens with 24 samples.

Results

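DUSP4, DUSP5, DUSP6, SPRY1, SPRY2, SPRY4, SPRED1, SPRED2, ETV4 and ETV5 are genes that signalling through the kinase ERK switches on, and most of them encode proteins that hold that signalling back. Each gene is represented here by the probe set that is annotated to it alone and that had the highest mean over all arrays. These are 10 of the 19775 genes with such a probe set, and all 10 passed the filter on low values, which kept 14335 genes for testing.

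The arrays measured total RNA of BT-474, an established human breast cancer line in which ERBB2, the gene of the receptor tyrosine kinase HER2, is amplified and which has the estrogen receptor. Cells had received HER2 siRNA or Control siRNA, and then 10 nM estrogen or its vehicle, 0.001% ethanol, for 4 or 24 h. That gave 8 groups of 3 arrays. They were HER2 siRNA with estrogen and under vehicle at 4 h and at 24 h, and the same 4 conditions with Control siRNA. All groups are one cell line and all received an siRNA, so no group of untransfected cells was analysed here. The siRNA sequence, and the time between transfection and hormone, are not given in the sources used here. Nothing in the labels says that replicates were separate cultures, and the p-values below then rest on a spread between arrays that may be technical. In RNA from whole cultures, fewer cells of a kind and less RNA per cell cannot be told apart.

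HER2 and its partner HER3 activate RAS, which passes the signal through RAF and MEK to ERK. Active ERK phosphorylates transcription factors of the ETS and AP-1 families, and among the genes then transcribed are inhibitors that act on the same cascade. DUSP proteins remove phosphate from ERK, Sprouty proteins act between the receptor and RAS, and SPRED proteins bring the RAS-inactivating protein neurofibromin to the membrane. ETV4 and ETV5 are ETS transcription factors of the PEA3 subfamily, whose transcripts are widely read as a measure of pathway output.

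Levels below are log2 RMA levels, a scale on which a difference of -1 is a halving, and a level is not set against that of another gene. Differences come from limma with all 24 arrays in the fit, are given as HER2 siRNA minus Control siRNA with their standard error, and were adjusted by Benjamini and Hochberg over 14335 genes. A gene is said to have risen or fallen where the adjusted p was under 0.05. Shares of all genes called use the same threshold, and no share is given for counts of members at an unadjusted p under 0.05. The array medians lay between 5.28 and 5.36, and arrays of one group correlated at 0.991 to 0.997 across probe sets. ERBB2 itself had levels of 11.86 to 12.69 (median 12.33) in the 12 HER2 siRNA arrays and 13.39 to 13.94 (median 13.60) in the 12 Control siRNA arrays, so the labels and the targeted transcript went the same way. The 8 luminal epithelial markers (ERBB2, ESR1, GATA3, FOXA1, KRT8, KRT18, KRT19 and EPCAM) were all measured above the filter. Markers of other cells were not all below it: 3 of 4 fibroblast markers (COL1A1, COL1A2 and DCN, but not LUM), 2 of 3 leukocyte markers (CD3E and LYZ, but not PTPRC) and 2 of 3 endothelial markers (PECAM1 and VWF, but not CDH5) passed the filter. The difference between the 3' and 5' GAPDH probe sets, a sign of RNA quality, was 0.443 ± 0.060 in HER2 siRNA arrays and 0.305 ± 0.066 in Control siRNA arrays (mean ± SD, n = 12 each). Its part in each result was not tested beyond a fit with this difference as a covariate.

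HER2 siRNA lowered all 10 transcripts when its effect was averaged over the 4 conditions. Of all genes tested, 29.1% were called lower in that comparison and 59.2% were called in either direction, so many genes moved. The median difference was -0.97 over the 10 genes, and 0.00 over all genes tested. The 12 HER2 siRNA arrays lay below all 12 Control siRNA arrays for 6 of the 10 (DUSP4, DUSP6, SPRY4, SPRED1, SPRED2 and ETV5), against 8.69% of all genes tested. The other members, DUSP5, SPRY1, SPRY2 and ETV4, had overlapping arrays and differences of -0.42 to -0.14. In the fit with the GAPDH difference as covariate, 9 of the 10 were still called lower, and in the fit without 3 arrays that the labels number apart, 8 were. The shares of all genes called lower in these other fits are not given here, so whether the counts stand out there is not known.

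**Figure D1:**
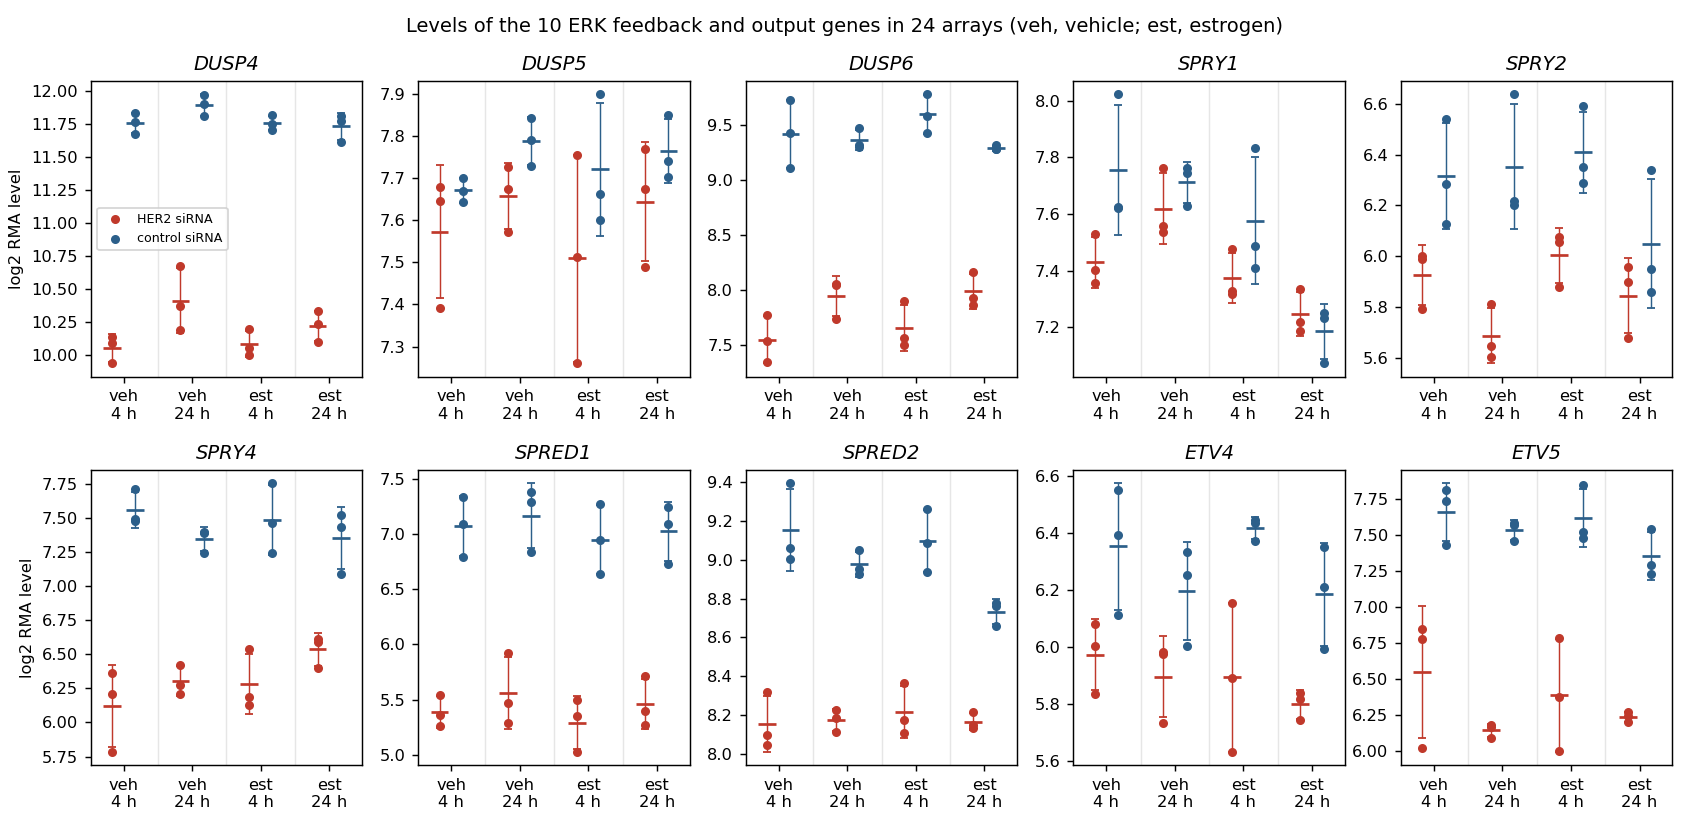
Log2 RMA level (vertical axes, one panel per gene) in each of the 24 arrays, by hormone and time, with HER2 siRNA left of Control siRNA. Points are arrays, horizontal lines group means and bars ± 1 SD (n = 3). HER2 siRNA arrays sit below all Control siRNA arrays in the panels of DUSP4, DUSP6, SPRY4, SPRED1, SPRED2 and ETV5, and the 2 sets overlap in those of DUSP5, SPRY1, SPRY2 and ETV4.

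RefSeq promoter windows (GRCh38.p14, 250 bases before to 50 after a start) matched 6 of the 10 genes by symbol, with 10 windows. Those of DUSP6, SPRY4 and SPRED1 are shown because, of the genes searched, these fell by more than one log2 unit. A second SPRED2 window is shown because it holds AP-1 letters. A second SPRY1 window is shown because SPRY1 changed little with the siRNA and was called lower with estrogen at 24 h. Sequences are read 5′ to 3′ on the gene's strand, and capitals mark a match to a searched motif. The DUSP6 window is chr12:89352452-89352751 (minus strand), SPRY4 chr5:142324198-142324497 (minus), SPRED1 chr15:38252586-38252885 (plus), SPRED2 chr2:65366729-65367028 (minus) and SPRY1 chr4:123398136-123398435 (plus).
DUSP6 promoter: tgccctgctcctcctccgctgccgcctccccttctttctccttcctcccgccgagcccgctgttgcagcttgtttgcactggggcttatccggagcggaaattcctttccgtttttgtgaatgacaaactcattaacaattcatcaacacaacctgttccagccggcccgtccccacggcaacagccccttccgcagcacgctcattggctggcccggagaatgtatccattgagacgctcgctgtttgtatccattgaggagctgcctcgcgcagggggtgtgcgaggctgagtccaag
SPRY4 promoter: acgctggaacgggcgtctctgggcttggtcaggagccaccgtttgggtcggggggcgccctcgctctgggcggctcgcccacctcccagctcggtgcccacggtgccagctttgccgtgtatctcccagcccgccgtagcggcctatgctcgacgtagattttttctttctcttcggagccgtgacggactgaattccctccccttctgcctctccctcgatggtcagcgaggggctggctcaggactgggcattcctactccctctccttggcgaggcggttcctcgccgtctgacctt
SPRED1 promoter: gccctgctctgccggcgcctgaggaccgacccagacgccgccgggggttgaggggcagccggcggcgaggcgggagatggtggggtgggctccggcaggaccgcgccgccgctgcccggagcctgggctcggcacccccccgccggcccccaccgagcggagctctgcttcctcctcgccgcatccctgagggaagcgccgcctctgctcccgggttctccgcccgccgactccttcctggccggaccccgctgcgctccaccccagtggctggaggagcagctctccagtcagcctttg
SPRED2 promoter at the second listed start: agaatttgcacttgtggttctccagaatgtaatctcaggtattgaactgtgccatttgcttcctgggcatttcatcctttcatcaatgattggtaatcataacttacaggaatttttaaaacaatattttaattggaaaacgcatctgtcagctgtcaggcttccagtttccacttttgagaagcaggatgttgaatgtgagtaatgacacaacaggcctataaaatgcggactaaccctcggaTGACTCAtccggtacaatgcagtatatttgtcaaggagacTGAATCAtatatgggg
SPRY1 promoter at the second listed start: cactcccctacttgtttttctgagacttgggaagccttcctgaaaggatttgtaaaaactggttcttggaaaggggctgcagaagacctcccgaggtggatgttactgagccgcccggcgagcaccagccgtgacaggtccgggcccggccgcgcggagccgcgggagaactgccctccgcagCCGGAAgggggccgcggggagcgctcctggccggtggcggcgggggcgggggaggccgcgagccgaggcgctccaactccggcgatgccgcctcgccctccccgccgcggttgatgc

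The letters searched on both strands were CCGGAAGT for ETS factors, TGANTCA for AP-1, TGACGTCA for the cyclic AMP response element, the palindromic estrogen response element, and the CArG box of serum response factor. The shorter ETS core CCGGAA, which the longer ETS letters contain, was added after the first search. The second SPRED2 window held AP-1 letters at -6 and 34 from the start, a motif that 7.71% of all 35116 promoter windows hold. The ETS core stood at -67 in the second SPRY1 window and at -142 in a SPRY2 window, against 17.2% of all windows. None of the 10 windows held the longer ETS letters (4.14% of all windows), the cyclic AMP element (1.85%), the estrogen element (0.057%) or the CArG box (1.29%). These matches describe letters only. Positions of genes below are those of the same RefSeq build.

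Among the phosphatases, DUSP6 (chr12:89347235-89352501) is the cytoplasmic enzyme selective for ERK. Under vehicle at 4 h its levels were 7.77, 7.34 and 7.53 in HER2 siRNA arrays, against 9.72, 9.43 and 9.10 in Control siRNA arrays. Under vehicle at 24 h they were 8.04, 7.73 and 8.05 with HER2 siRNA, against 9.47, 9.30 and 9.32 with Control siRNA. No HER2 siRNA array came within one log2 unit of a Control siRNA array of the same condition. With estrogen the levels at 4 h were 7.50, 7.89 and 7.56 in HER2 siRNA arrays, against 9.58, 9.78 and 9.43 in Control siRNA arrays. Under estrogen at 24 h they were 8.16, 7.93 and 7.86 with HER2 siRNA, against 9.28, 9.31 and 9.28 with Control siRNA. The averaged difference was -1.64 ± 0.07 (adjusted p = 2.41e-14), which left 32.2% of the Control siRNA level (95% confidence interval 29.0% to 35.7%). The other DUSP6 probe sets gave -1.67 and -1.45, so the 3 of them moved alike.

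DUSP4 is a nuclear phosphatase of ERK and other MAP kinases. Its levels ran from 9.94 to 10.68 (median 10.16) in HER2 siRNA arrays and from 11.62 to 11.97 (median 11.79) in Control siRNA arrays, a gap of almost one log2 unit between the nearest arrays. The averaged difference was -1.59 ± 0.05 (adjusted p = 2.64e-16), which left 33.2% of the Control siRNA level (interval 30.9% to 35.7%). Its other probe sets gave -1.55 and -1.52. By condition the difference was -1.70 under vehicle at 4 h, -1.48 under vehicle at 24 h, -1.67 under estrogen at 4 h and -1.51 under estrogen at 24 h. It was called lower in each of them.

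DUSP5 (chr10:110497907-110511533), a nuclear phosphatase specific to ERK, had a small difference. Its levels were 7.26 to 7.77 (median 7.66) in HER2 siRNA arrays and 7.60 to 7.90 (median 7.72) in Control siRNA arrays, and the arms overlapped between 7.60 and 7.77. The averaged difference was -0.14 ± 0.05 (adjusted p = 0.0306). It was not called in any single condition, where it lay between -0.21 and -0.10. Leaving out the 3 arrays numbered apart ended the averaged call (adjusted p = 0.0911), and so did leaving out any 1 of 7 single arrays. These were replicate 3 of Control siRNA vehicle at 24 h, replicate 2 of Control siRNA estrogen at 24 h and at 4 h, replicate 3 of HER2 siRNA vehicle at 24 h and at 4 h, and replicate 1 of HER2 siRNA estrogen at 24 h and at 4 h.

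With the probe sets used, each of the other families also held a member that fell far and one that moved less. SPRY4 (chr5:142310430-142325021), a Sprouty inhibitor of receptor signalling to RAS, had levels of 5.78 to 6.61 (median 6.32) in HER2 siRNA arrays and 7.09 to 7.75 (median 7.45) in Control siRNA arrays. The arms did not overlap, and the averaged difference was -1.12 ± 0.07 (adjusted p = 1.82e-11), or 45.9% of the Control siRNA level (interval 41.2% to 51.1%). By condition it was -1.44 under vehicle at 4 h, -1.04 under vehicle at 24 h, -1.20 under estrogen at 4 h and -0.81 under estrogen at 24 h.

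SPRY2 (chr13:80335976-80341126), another Sprouty, fell less and not in every condition. Its levels were 5.60 to 6.08 (median 5.89) in HER2 siRNA arrays and 5.86 to 6.64 (median 6.29) in Control siRNA arrays. The averaged difference was -0.42 ± 0.07 (adjusted p = 1.57e-05). It was -0.66 ± 0.14 under vehicle at 24 h (adjusted p = 0.000447) and -0.20 ± 0.14 under estrogen at 24 h (adjusted p = 0.253). Under vehicle at 24 h the arrays were 5.65, 5.60 and 5.81 with HER2 siRNA, against 6.64, 6.22 and 6.20 with Control siRNA. Under estrogen at 24 h they were 5.68, 5.90 and 5.96 with HER2 siRNA, against 5.86, 6.34 and 5.95 with Control siRNA, so the arrays overlapped there. At 4 h SPRY2 was called with vehicle (-0.39 ± 0.14, adjusted p = 0.0308) and with estrogen (-0.41 ± 0.14, adjusted p = 0.0248). With vehicle the call ended without replicate 1 or 2 of the Control siRNA arrays or replicate 3 of the HER2 siRNA arrays, and with estrogen without replicate 2 of the Control siRNA arrays or replicate 3 of the HER2 siRNA arrays.

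SPRY1 (chr4:123396795-123403760), the third Sprouty, showed little siRNA effect and most of the hormone effect described further on. The arms were 7.19 to 7.76 (median 7.38) with HER2 siRNA and 7.07 to 8.02 (median 7.62) with Control siRNA, and the averaged difference was -0.14 ± 0.06 (adjusted p = 0.0340). Only under vehicle at 4 h was a single condition called, at -0.33 ± 0.11 (adjusted p = 0.0261). There the arrays were 7.36, 7.40 and 7.53 with HER2 siRNA, against 8.02, 7.62 and 7.63 with Control siRNA. A second probe set averaged +0.20 ± 0.09 (adjusted p = 0.0546), so the probe sets disagree in direction. With the GAPDH difference as a covariate the averaged value was -0.04 (adjusted p = 0.773), and without the 3 arrays numbered apart it was -0.15 (adjusted p = 0.0571). Leaving out any of 14 single arrays also ended the averaged call. The call under vehicle at 4 h ended without replicate 1 of the Control siRNA arrays (-0.20) or replicate 1 or 2 of the HER2 siRNA arrays. It also ended with the GAPDH difference as a covariate (-0.25, adjusted p = 0.137), with the mean of the probe sets (-0.14, adjusted p = 0.424) and with only the groups compared in the fit (adjusted p = 0.0784).

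SPRED1 (chr15:38252836-38357249) and SPRED2 (chr2:65307175-65432599) tether neurofibromin at the membrane and so keep RAS in its inactive form. SPRED1 levels under vehicle at 4 h were 5.26, 5.55 and 5.36 in HER2 siRNA arrays, against 7.34, 7.09 and 6.79 in Control siRNA arrays. Under vehicle at 24 h they were 5.47, 5.29 and 5.92 with HER2 siRNA, against 7.38, 6.83 and 7.29 with Control siRNA. The arms stayed apart in both, as they did with estrogen. Under estrogen at 4 h the levels were 5.35, 5.50 and 5.03 with HER2 siRNA, against 6.94, 7.27 and 6.64 with Control siRNA. Under estrogen at 24 h they were 5.71, 5.27 and 5.40 with HER2 siRNA, against 6.73, 7.25 and 7.09 with Control siRNA. SPRED1 averaged -1.63 ± 0.10 (adjusted p = 4.15e-12), or 32.4% of the Control siRNA level (interval 28.1% to 37.3%), and its 4 condition values ran from -1.68 to -1.56. The HER2 siRNA levels of SPRED1 lie near the filter of 5, and its dimmer probe set above the filter averaged -0.85.

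For SPRED2, whose second window above holds AP-1 letters, the levels were 8.04 to 8.37 (median 8.16) in HER2 siRNA arrays and 8.66 to 9.40 (median 8.98) in Control siRNA arrays. Its averaged difference was -0.81 ± 0.05 (adjusted p = 6.91e-12), or 57.0% of the Control siRNA level (interval 53.0% to 61.3%). It was -1.0004 under vehicle at 4 h and -0.57 under estrogen at 24 h. In the HER2 siRNA arrays the 4 group means of SPRED2 stayed within 8.15 to 8.22, and in the Control siRNA arrays they were 9.15 under vehicle at 4 h, 8.98 under vehicle at 24 h, 9.10 under estrogen at 4 h and 8.73 under estrogen at 24 h. Both other SPRED2 probe sets were below the filter, and with them averaged in the difference was -0.28. That mean of probe sets ended the SPRED2 call under vehicle at 24 h (-0.13, adjusted p = 0.138, against -0.80 with the probe set used).

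With the probe sets used, the PEA3 transcription factors divided in the same way. The other ETV5 probe sets above the filter lay nearer to ETV4, so the division depends on the probe set. ETV5 (chr3:186046314-186109089) had levels of 6.003 to 6.85 (median 6.22) in HER2 siRNA arrays and 7.23 to 7.85 (median 7.53) in Control siRNA arrays. The averaged difference was -1.21 ± 0.09 (adjusted p = 1.48e-10), or 43.3% of the Control siRNA level (interval 38.0% to 49.3%). At 4 h its HER2 siRNA arrays were spread wide, at 6.85, 6.78 and 6.02 with vehicle and 6.38, 6.78 and 6.003 with estrogen, and at 24 h they were close together, between 6.10 and 6.27. Its other probe sets above the filter gave -0.44, -0.21 and -0.76, and the mean of its probe sets gave -0.52.

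ETV4 (chr17:43527846-43546340) had levels of 5.63 to 6.15 (median 5.86) in HER2 siRNA arrays and 5.99 to 6.55 (median 6.34) in Control siRNA arrays. Its averaged difference was -0.40 ± 0.06 (adjusted p = 1.29e-05), and its other probe set gave -0.19. Under vehicle at 24 h the difference was -0.30 ± 0.13 (adjusted p = 0.0656), and the arrays were 5.98, 5.97 and 5.73 with HER2 siRNA, against 6.25, 6.003 and 6.33 with Control siRNA. In that comparison equal replicate numbers paired the arrays, and the fit with the replicate block called ETV4 lower (adjusted p = 0.0430). It was also called there without replicate 2 of the Control siRNA arrays, or without replicate 1 or 3 of HER2 siRNA estrogen at 4 h. Elsewhere it was called, at -0.38 under vehicle at 4 h, -0.52 under estrogen at 4 h and -0.39 under estrogen at 24 h. The vehicle 4 h call ended without replicate 1 or 3 of the Control siRNA arrays or replicate 3 of the HER2 siRNA arrays, and the estrogen 24 h call without replicate 1 or 2 of the Control siRNA arrays or replicate 3 of the HER2 siRNA arrays. With the GAPDH difference as a covariate ETV4 was past the threshold neither under vehicle at 4 h (-0.35, adjusted p = 0.0814) nor under estrogen at 24 h (-0.33, adjusted p = 0.160). With only the groups compared in the fit, the adjusted p under vehicle at 4 h was 0.0505.

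Counted by condition, HER2 siRNA lowered 9 of the 10 genes under vehicle at 4 h, where 17.8% of all genes tested were called lower. It lowered 7 under vehicle at 24 h (background 21.8%), 8 under estrogen at 4 h (17.3%) and 7 under estrogen at 24 h (20.5%). DUSP4, DUSP6, SPRY4, SPRED1, SPRED2 and ETV5 were called lower in each of the 4 conditions, as were 12.2% of all genes tested. With the mean of probe sets, SPRED2 was not called under vehicle at 24 h. With the GAPDH difference as a covariate the counts of members called were 7, 7, 9 and 6 in the same order of conditions, and DUSP5 was then called under estrogen at 4 h (-0.37, adjusted p = 0.0359). The percentages above are from the fit without the covariate, and those with it are not given here. No member was called higher in any of the 4 conditions. The median over the 10 genes was -1.05 under vehicle at 4 h, -0.92 under vehicle at 24 h, -1.04 under estrogen at 4 h and -0.69 under estrogen at 24 h, and the median over all genes lay within 0.01 of zero in each.

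**Figure D2:**
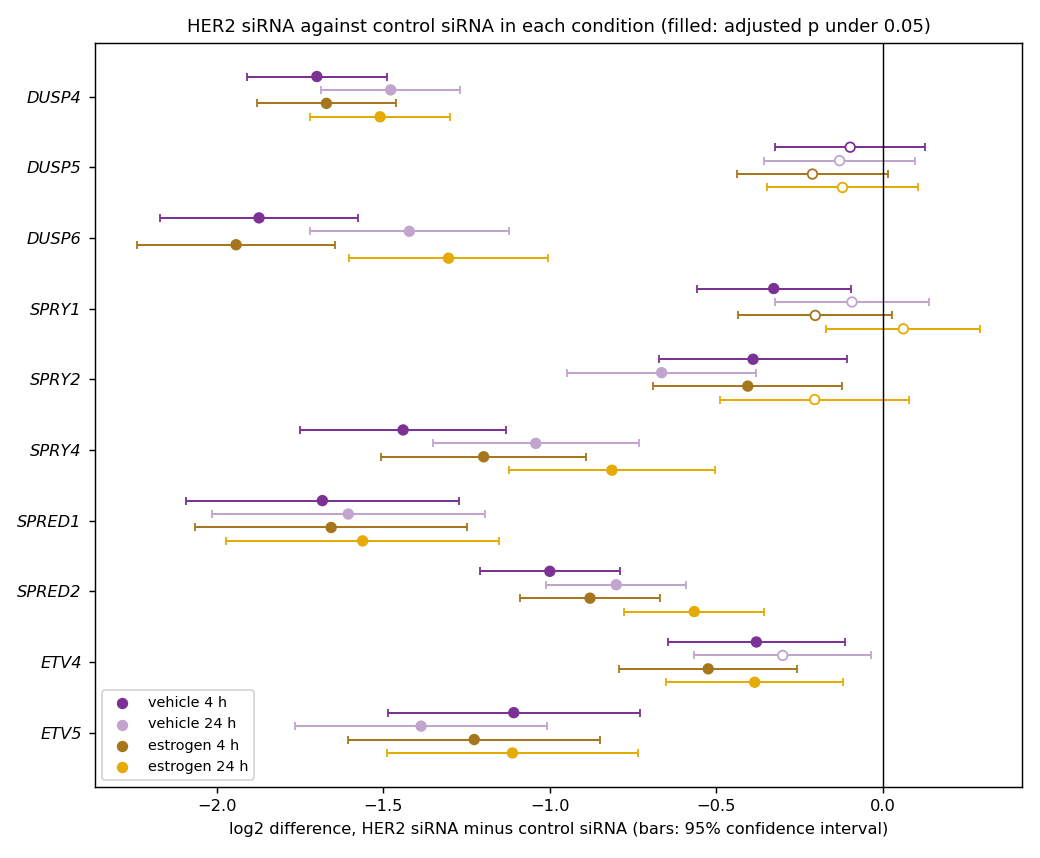
Log2 difference, HER2 siRNA minus Control siRNA (horizontal axis), for each gene in the 4 conditions, with 95% confidence intervals and filled points where the adjusted p was under 0.05. DUSP4, DUSP6, SPRY4, SPRED1, SPRED2 and ETV5 are filled and below zero in all 4 conditions, and DUSP5 is open in all 4.

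Does the siRNA effect change between 4 and 24 h of hormone or vehicle? Averaged over hormone, the effect on DUSP6 was smaller at 24 h than at 4 h, by 0.54 ± 0.14 on the log2 scale (adjusted p = 0.0435), and DUSP6 was the one member called, in a comparison that called 2.95% of all genes. Its siRNA difference was -1.42 under vehicle at 24 h and -1.87 under vehicle at 4 h, and -1.30 under estrogen at 24 h and -1.94 under estrogen at 4 h. The call was lost in 24 of 34 other fits, 18 of which left out 1 array, and the other DUSP6 probe sets gave 0.30 and 0.23 (adjusted p = 0.371 and 0.293). SPRY4 (0.39 ± 0.15, adjusted p = 0.169), SPRED2 (0.26 ± 0.10, adjusted p = 0.189) and SPRY1 (0.25 ± 0.11, adjusted p = 0.256) had positive values that did not pass the threshold. The fit with the replicate block also called SPRY4 (adjusted p = 0.0145).

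Between times within one treatment, few members moved. In HER2 siRNA cells with vehicle, DUSP4 was higher at 24 h than at 4 h by 0.36 ± 0.10 (adjusted p = 0.0374, background 6.46%). Its arrays were 10.19, 10.37 and 10.68 at 24 h and 9.94, 10.09 and 10.14 at 4 h. The other DUSP4 probe sets gave 0.20 and 0.11 (adjusted p = 0.172 and 0.509). The call was lost in 7 of 35 other fits, among them those without replicate 2 or 3 of the 24 h arrays or replicate 1 or 2 of the 4 h arrays. In the same comparison ETV5 differed by -0.40 ± 0.18 (adjusted p = 0.204), and by -0.66 (adjusted p = 0.0146) once the lowest 4 h array, replicate 3, was left out. In Control siRNA cells with estrogen, SPRY1 (-0.39 ± 0.11, adjusted p = 0.0397) and SPRED2 (-0.36 ± 0.10, adjusted p = 0.0363) were lower at 24 h than at 4 h, in a comparison that called 5.96% of all genes. Leaving out any 1 of 5 arrays of those groups, or fitting those groups alone, left neither past the threshold. No member was called between times in Control siRNA cells with vehicle (0.781% of all genes called) or in HER2 siRNA cells with estrogen (6.21%). At an unadjusted p under 0.05 the counts were 0 with Control siRNA and vehicle, and 1 with HER2 siRNA and estrogen, DUSP6 at 0.33 ± 0.14 (adjusted p = 0.198).

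Estrogen moved few of the 10 genes past the threshold. At 4 h none of the 10 was called in HER2 siRNA cells (0.698% of all genes called) or in Control siRNA cells (0.342%), and none had an unadjusted p under 0.05 in limma. The differences, estrogen minus vehicle, lay between -0.16 and 0.17 with HER2 siRNA and between -0.18 and 0.18 with Control siRNA. The 95% confidence intervals reached as far as -0.54 and 0.47 over the 10 genes with HER2 siRNA, and -0.53 and 0.47 with Control siRNA, so changes of that size are not excluded for the widest of them. DUSP4 had one of the narrowest intervals in Control siRNA cells, from -0.21 to 0.21.

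At 24 h SPRY1 was the one member that estrogen lowered, in both siRNA arms. In HER2 siRNA cells its levels were 7.19, 7.22 and 7.33 with estrogen, against 7.54, 7.56 and 7.76 with vehicle. In Control siRNA cells they were 7.07, 7.23 and 7.25 with estrogen, against 7.74, 7.63 and 7.76 with vehicle. Estrogen arrays of SPRY1 lay below its vehicle arrays in each arm. This was not particular to SPRY1. Estrogen arrays of DUSP4 and SPRED2 also lay below vehicle arrays with Control siRNA, and those of ETV5 lay above with HER2 siRNA, all without a call. The share of all genes without overlap is not given here for estrogen. The SPRY1 difference was -0.37 ± 0.11 with HER2 siRNA (adjusted p = 0.0492, background 6.17%) and -0.53 ± 0.11 with Control siRNA (adjusted p = 0.00258, background 13.5%). The call in HER2 siRNA cells was lost in 27 of 35 other fits, and that in Control siRNA cells in 2 of 35. Leaving out any of 21 single arrays ended the call in HER2 siRNA cells. In Control siRNA cells it ended without the 3 arrays numbered apart (-0.46, adjusted p = 0.0567). The second SPRY1 probe set gave -0.31 in HER2 siRNA cells (adjusted p = 0.509) and -0.08 in Control siRNA cells (adjusted p = 0.856). The difference of this effect between arms, HER2 siRNA minus Control siRNA, was 0.15 ± 0.16 and did not pass the threshold (adjusted p = 0.983, interval -0.17 to 0.48).

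Other members had estrogen differences at 24 h between -0.19 and 0.23 in HER2 siRNA cells and between -0.30 and 0.01 in Control siRNA cells. SPRY2 (-0.30 ± 0.14, adjusted p = 0.159) and SPRED2 (-0.24 ± 0.10, adjusted p = 0.123) had an unadjusted p under 0.05 with Control siRNA. Leaving out replicate 2 of the Control siRNA estrogen arrays put SPRY2 at -0.45 (adjusted p = 0.0438). Estrogen effects were compared directly between the siRNA arms, and no member was called at 4 h (0% of all genes called) or at 24 h (0.0628%). At an unadjusted p under 0.05 the counts were 0 at 4 h and 1 at 24 h, where SPRY2 differed by 0.46 ± 0.19 (adjusted p = 0.737). The estrogen effect with Control siRNA at 24 h minus that at 4 h was called for no member (1.28% of all genes called), and 1 had an unadjusted p under 0.05, SPRY1 with -0.35 ± 0.16 (adjusted p = 0.372).

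**Figure D3:**
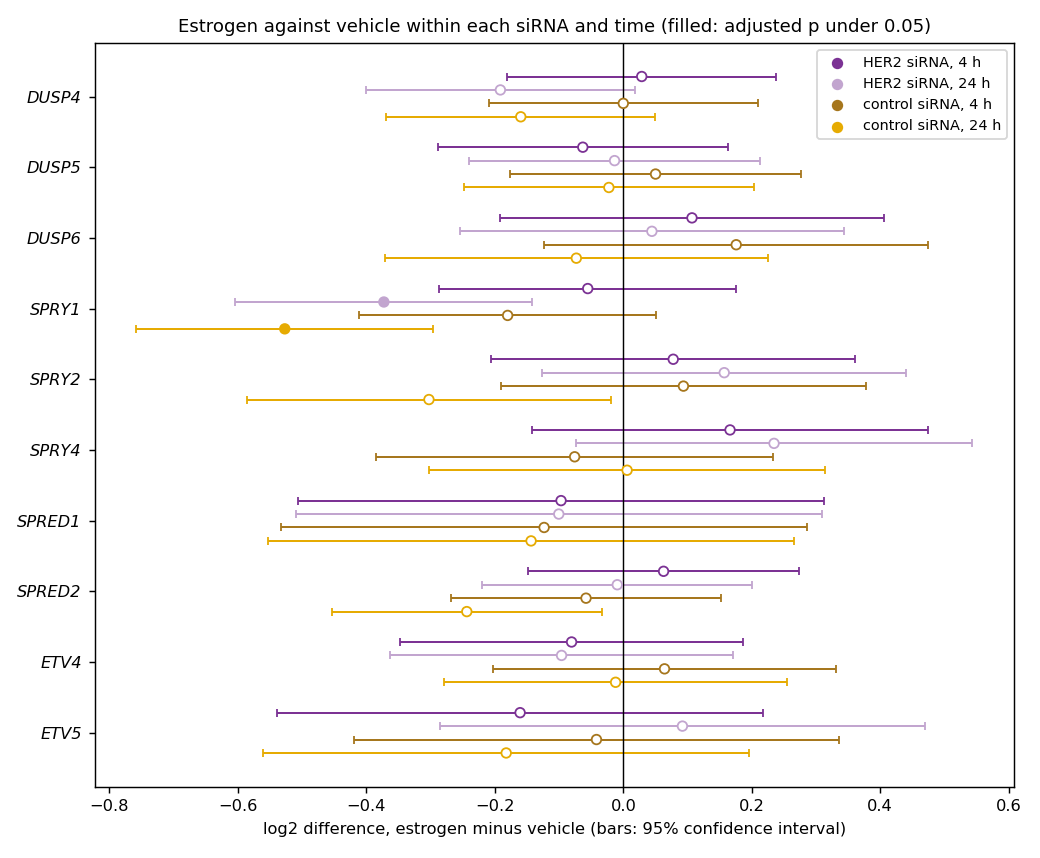
Log2 difference, estrogen minus vehicle (horizontal axis), for each gene in HER2 siRNA and Control siRNA cells at 4 and 24 h, with 95% confidence intervals and filled points where the adjusted p was under 0.05. Both filled points belong to SPRY1 at 24 h, at -0.37 with HER2 siRNA and -0.53 with Control siRNA.

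The 10 genes were set beside 4 other lists of the pathway, to which the members do not belong. Members and lists were chosen with earlier results of these data known, so the contrast between lists is a description. The relatives of the members comprised 10 genes, of which 8 were tested. HER2 siRNA lowered DUSP7 (-0.83 ± 0.06, adjusted p = 1.87e-11), a cytoplasmic ERK phosphatase close to DUSP6, and DUSP10 (-0.26 ± 0.06, adjusted p = 0.000528), which prefers JNK and p38. It raised DUSP1 (0.20 ± 0.05, adjusted p = 0.00256) and DUSP8 (0.13 ± 0.05, adjusted p = 0.0168), both phosphatases of stress kinases. The remaining relatives, DUSP2, DUSP16, SPRED3 and ETV1, did not pass the threshold. The 4 calls in 8 genes stand beside 59.2% over all genes tested, and the list had a median of -0.08.

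Among other inhibitors of receptor, RAS and ERK signalling, 8 of 10 genes were tested, with 2 higher and 3 lower and a median of -0.05, a share called near the 59.2% of all genes tested. IL17RD, a membrane inhibitor of fibroblast growth factor signalling also called Sef, rose by 0.69 ± 0.07 (adjusted p = 2.58e-08). PTPN1, a phosphatase of receptor tyrosine kinases, differed by -0.38 ± 0.03 (adjusted p = 1.14e-09). CBL, a ubiquitin ligase for activated receptors, differed by -0.45 ± 0.05 (adjusted p = 1.83e-07). ERRFI1, which binds and inhibits HER family kinases, differed by -0.62 ± 0.09 (adjusted p = 1.73e-06).

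The list of other ERK-induced outputs moved both ways. Of its 15 genes 14 were tested, with 4 higher and 4 lower and a median of -0.02. Those 8 calls in 14 genes lie near the 59.2% called among all genes tested. CCND1, the G1 cyclin D1, fell by 0.56 ± 0.06 on the log2 scale (adjusted p = 2.06e-08), EPHA2, a receptor tyrosine kinase, by 0.47 ± 0.05 (adjusted p = 5.99e-08), and SPHK1, a sphingosine kinase, by 0.38 ± 0.06 (adjusted p = 2.78e-05). MCL1, a survival protein of the BCL2 family, rose by 0.34 ± 0.03 (adjusted p = 2.07e-08). Among the 4 that rose were the immediate early genes EGR1 (0.23 ± 0.08, adjusted p = 0.0162) and JUNB (0.23 ± 0.06, adjusted p = 0.000878), named here after their values were seen.

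Components of the cascade itself also moved both ways. Of 21 genes 16 were tested, with 7 higher and 6 lower, or 13 called beside 59.2% of all genes tested, and a median of 0.06. ERBB3, the partner receptor HER3, rose by 0.96 ± 0.04 (adjusted p = 4.80e-14). The MEK1 gene MAP2K1 (-0.61 ± 0.04, adjusted p = 1.55e-11), the ERK-activated kinase gene RPS6KA3 (-0.42 ± 0.04, adjusted p = 1.50e-08) and HRAS (-0.46 ± 0.05, adjusted p = 2.22e-08) fell. MAP2K1 group means were 8.01 to 8.12 in the HER2 siRNA groups and 8.62 to 8.77 in the Control siRNA groups.

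**Figure D4:**
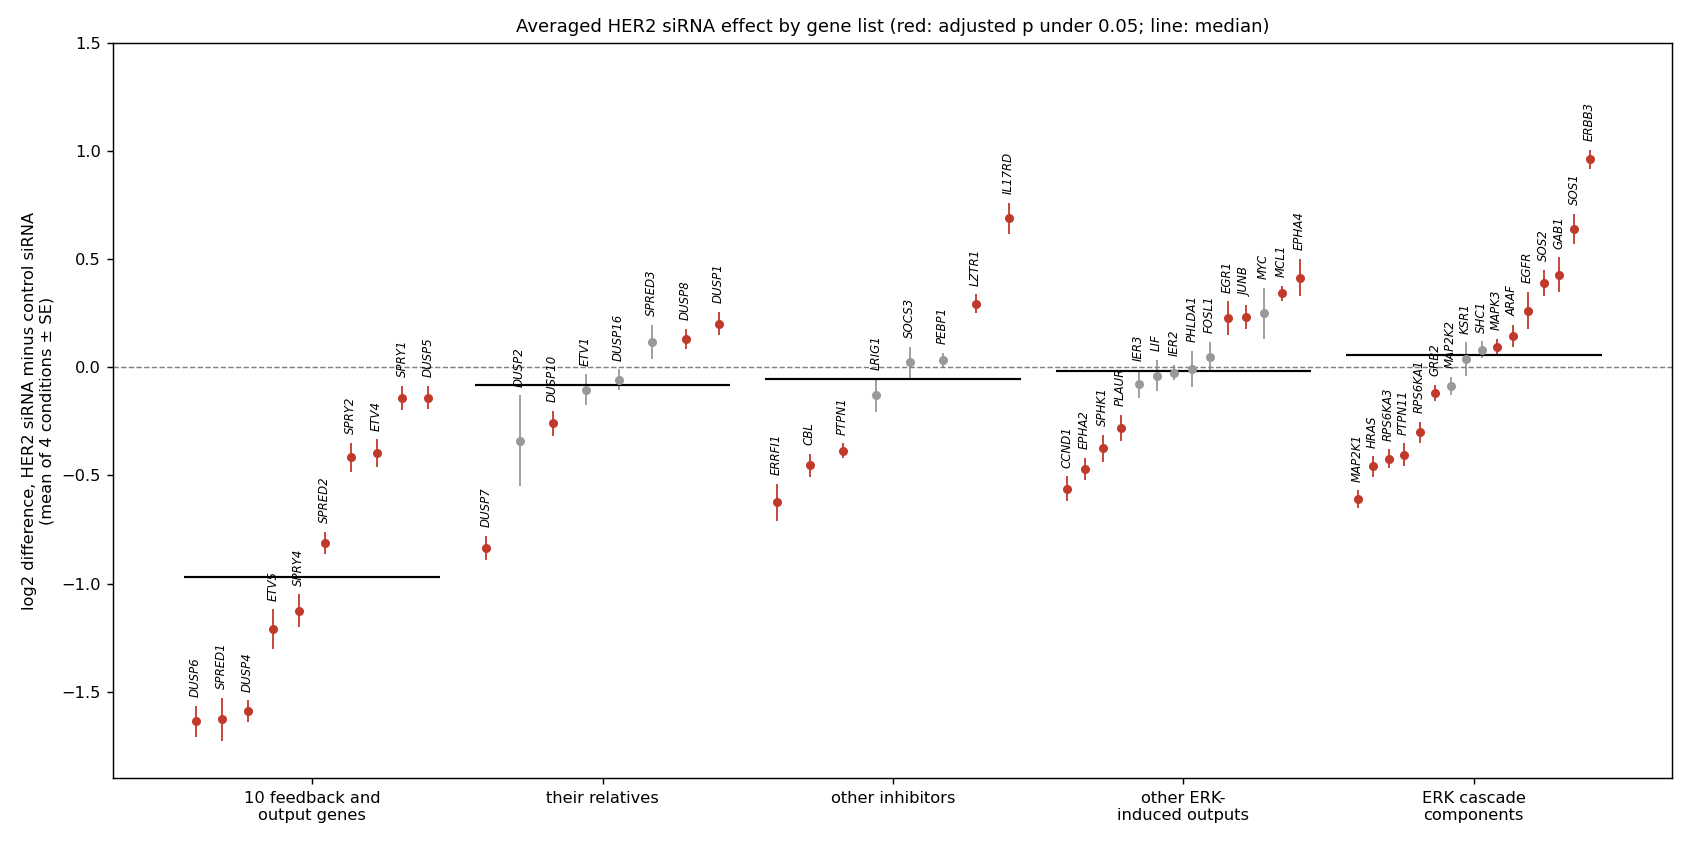
Averaged log2 difference, HER2 siRNA minus Control siRNA (vertical axis, ± SE), for each tested gene of 5 lists, in red where the adjusted p was under 0.05, with the list's median as a line. The 10 feedback and output genes are all below zero with a median of -0.97, and the medians of the other lists lie between -0.08 and 0.06.

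For estrogen against vehicle at 24 h with Control siRNA, 13.5% of all genes tested were called. Of the 14 other outputs tested, 1 was higher and 3 were lower, and of the 16 cascade components 1 was higher and 1 lower. MYC rose by 2.93 ± 0.24 (adjusted p = 5.63e-08) and IER3 fell by 0.55 ± 0.13 (adjusted p = 0.00770) among the other outputs. The other outputs that fell, named after their values were seen, were JUNB (-0.44, adjusted p = 0.0101) and the receptor gene EPHA4 (-0.59, adjusted p = 0.0279). RPS6KA3 rose by 0.44 ± 0.08 (adjusted p = 0.00112) and EGFR fell by 0.59 ± 0.17 (adjusted p = 0.0267) among the cascade components. None of the 8 relatives and none of the 8 other inhibitors passed the threshold there.

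Genes used as markers of other cell types moved both ways with HER2 siRNA. Of 2 leukocyte markers tested LYZ was higher with HER2 siRNA (1.08 ± 0.17, adjusted p = 7.96e-06), and of 3 fibroblast markers COL1A1 was (0.35 ± 0.07, adjusted p = 0.000176). Of 2 endothelial markers tested VWF was lower (-0.32 ± 0.07, adjusted p = 0.000235). Of all genes tested, 59.2% were called in either direction in this comparison. Summed log2 levels of the leukocyte markers ran from 13.2 to 15.1 in HER2 siRNA arrays and from 12.7 to 13.995 in Control siRNA arrays. For fibroblast markers the sums were 23.1 to 24.2 in HER2 siRNA arrays and 23.3 to 23.9 in Control siRNA arrays. For endothelial markers they were 15.9 to 16.8 in HER2 siRNA arrays and 16.5 to 17.4 in Control siRNA arrays. The sums include LUM, PTPRC and CDH5, which did not pass the filter. All arrays are labelled as one cell line, so these values are given as signals of probe sets and not as amounts of other cells. The source of these signals was not tested.

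Over the 8 group means, DUSP4, DUSP6, SPRY4, SPRED1, SPRED2 and ETV5 correlated with each other at 0.942 to 0.997 (Pearson's r, 15 pairs), and the 9 pairs with SPRY1 at 0.223 to 0.533. The genes of the 15 pairs are those whose HER2 siRNA arrays all lay below the Control siRNA arrays. That choice by itself favours a high r over group means. With the same genes ETV4 had r of 0.896 to 0.959, which overlaps the range of the 15 pairs. SPRY2 had 0.813 to 0.924 and DUSP5 0.688 to 0.853, both below that range. The 8 group means share arrays and the same siRNA contrast, and r is given as a description. Within groups, where the siRNA contrast is removed, the 15 pairs had a median r of 0.320 over the 24 arrays, from -0.087 to 0.600. There DUSP4 had r of -0.087 with DUSP6, -0.056 with ETV5, -0.043 with SPRY4, 0.038 with SPRED2 and 0.388 with SPRED1. Deviations from group means over tested genes correlated at a median of 0.205 between arrays of equal replicate number and -0.107 between those of different number. The part of this in the 15 pairs was not tested. Over all tested genes, the one most like DUSP4 was SPRED1 (r = 0.997), and PXDN, a peroxidase of the extracellular matrix, was the most like both DUSP6 (r = 0.995) and SPRY4 (r = 0.993). ETV5 was most like PLEKHA3 (r = 0.999) and SPRED2 most like LRRC8A, a subunit of volume-regulated anion channels (r = 0.996). SPRY2 was most like SH3RF3 (r = 0.982), DUSP5 most like the RNA helicase gene DDX5 (r = 0.978) and SPRY1 most like MYL6, a myosin light chain (r = 0.965). For ETV4 it was HTATSF1P2 (r = 0.990), a pseudogene whose probe set may also read its parent gene. The mean profile of the 10 genes was most like HNRNPUL2 (r = 0.999). Each of these genes was picked as the highest r among 14335 tested genes, over only 8 group means. Many genes shared the siRNA contrast, as 12.2% were called lower in each of the 4 conditions. A link between such a gene and a member was not tested.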

How the data were processed

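Total RNA from 24 samples of BT-474 cells was labelled from the 3' end and hybridised to Affymetrix HG-U133 Plus 2.0 arrays, 3 in each of 8 groups. The deposited values are log2 levels per probe set and array, made by the authors with RMA, per the submitters' processing notes. The RMA version, and the steps before it, are not given in the sources used here. For arrays, their number limits the precision. One array, HER2 siRNA estrogen 4 h replicate 3, has a source name of 24 h but 4 h in every other label, and was placed at 4 h.

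Of 54675 probe sets, 41091 had 1 gene symbol, 1801 several, 11721 none and 62 were controls. Of those with 1 symbol, 41037 matched RefSeq. The brightest probe set by mean stood for each of 19775 genes, and 14335 genes reached a log2 level of 5 in at least 3 arrays. limma 3.58.1 (R 4.3.3) fitted 8 group means with empirical Bayes moderation, and 17 comparisons were adjusted by Benjamini and Hochberg. The script was tested on simulated data. Tables and figures used Python 3.11.15 and matplotlib 3.10.9.

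The members, lists and tests were chosen with earlier results of these data known. Named list genes were up to 4 per list with the smallest adjusted p for the averaged siRNA effect, and up to 2 for estrogen at 24 h with Control siRNA. Comparisons in the same siRNA arm share arrays. Equal replicate numbers paired arrays (every same-number correlation of deviations from group means over 0.1) in 5 of the 12 comparisons of 1 group with another. Of 84 same-number pairs, 60 were over 0.1. Alternatives were no filter, a filter of 7, the replicate block with or without the number series, leaving out 3 arrays numbered apart, mean or every probe set, only the groups compared, equal medians, quantile normalisation, GAPDH as covariate, and each array left out.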

Additional observations from a re-analysis of the deposited data

Results flagged for a closer look

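The HER2 siRNA effect on DUSP6 was called different between times with the probe set used, and with neither of its other probe sets. The comparison called 2.95% of all genes tested. Averaged over hormone, the effect at 24 h minus that at 4 h was 0.54 ± 0.14 on the log2 scale (limma, adjusted p = 0.0435), and the siRNA difference was -1.42 and -1.30 at 24 h (vehicle and estrogen), against -1.87 and -1.94 at 4 h. DUSP6 had less of a fall at 24 h under both treatments, and the call was lost in 24 of 34 other fits.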

How the results depend on the processing

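Over 170 values, 1 per gene and comparison, 35 alternatives were computed. Of 47 values past the threshold 33 kept direction and call in all alternatives that gave a value. The averaged siRNA effects on DUSP4, DUSP6, SPRY4, SPRED1, SPRED2, ETV5, SPRY2 and ETV4 were among those kept. SPRY1 was the one reversal, averaging 0.032 (adjusted p = 0.682) with the mean of its probe sets. That mean also gave SPRED1 -0.86, SPRED2 -0.28 and ETV5 -0.52 in the averaged effect. The filter of 7 left 8 of the 10 genes and 9287 genes in all.

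Counts of members called changed as follows, and the cause was not tested. The number of all genes called also changed between fits and is given below for some of them only. Whether the members changed more than all genes is therefore not known. For estrogen with HER2 siRNA at 24 h (1 called), the count was 0 with no filter, without the 3 arrays numbered apart, with the mean of probe sets, every probe set, only the groups compared and equal medians, and 0 to 1 with each array left out. For estrogen with Control siRNA at 24 h (1 called), it was 0 without those 3 arrays and with the mean of probe sets, and 1 to 2 with each array left out. For the siRNA effect at 24 h minus that at 4 h (1 called), it was 0 with no filter, without those 3 arrays, with the replicate block and number series, the mean of probe sets, equal medians and the GAPDH covariate, 2 with the replicate block alone, and 0 to 1 with each array left out. For 24 h against 4 h with Control siRNA and estrogen (2 called), it was 0 with no filter, without those 3 arrays, with the mean of probe sets, every probe set and only the groups compared, 1 with the replicate block and number series, and 0 to 2 with each array left out. For 24 h against 4 h with HER2 siRNA and vehicle (1 called), it was 0 with no filter, only the groups compared and the GAPDH covariate, 2 with the replicate block and number series, and 0 to 2 with each array left out.

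The replicate block changed 2 calls of single genes, ETV4 with vehicle at 24 h and SPRY4 for the siRNA effect between times (0.39, adjusted p = 0.0145), and no other. Over all genes, it raised the counts to 829, against 423, for the siRNA effect between times, and to 1670, against 926, for 24 h against 4 h with HER2 siRNA and vehicle. Fitting only the groups compared gave 52 genes there, 458 against 885 for estrogen with HER2 siRNA at 24 h, and 439 against 855 for 24 h against 4 h with Control siRNA and estrogen. Without the 3 arrays numbered apart, estrogen with Control siRNA at 24 h called 1151 genes, against 1939.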
